A study of Mus musculus with 2 samples.

Results

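Tcrg-C1, Tcrg-C2, Tcrg-C4 and Tespa1 are 4 of the 32285 genes listed in 2 single-cell RNA libraries of mouse leukemic promyelocytes. They were chosen by gene symbol because their RNA was far lower in the library from retinoic acid-treated mice, so that difference is described here and not tested. The Tcrg genes encode constant regions of the T-cell receptor gamma chain, the part of the chain shared by all receptors that use the same gene cluster. In gamma-delta T cells the gamma chain pairs with a delta chain and signals through the CD3 subunits, which carry the receptor to the cell surface. Constant genes of this locus can also be transcribed without a finished rearrangement of the variable and joining segments, and signalling through the interleukin-7 receptor and STAT5 is known to open the locus. Tespa1 encodes a thymocyte protein that binds inositol trisphosphate receptors and is needed for calcium signalling below the T-cell receptor, and it has also been studied in mast cells.

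Both libraries are labelled as late promyelocytes carrying the PLZF/RARA fusion, sorted from leukemic bone marrow as Cd45.2+, C-Kit+, Gr1+, Cd34- and FcγR+ cells. Control mice received intraperitoneal corn oil with 10% DMSO, and treated mice received intraperitoneal retinoic acid at 0.8 to 1 mg, in each case for 7 days. A cohort held 3 to 5 mice, and the number of mice behind each library, their age and strain, and how the cells had been transformed are not given in the sources used here. The vehicle library gave 5476 kept cells with a median of 16750 UMIs (unique molecular identifiers, each marking 1 captured RNA molecule), and the retinoic acid library gave 7140 cells with a median of 14604. With 1 library per group no test was made, and a ratio between the libraries cannot be told apart from a difference between mice, sorts or preparations. The library from mice given retinoic acid is called the treated library. Levels are given in CPM, the counts of a gene per 1000000 UMIs of its library or group of cells. Intervals in brackets are exact 95% intervals for counting error only, Poisson for levels and for co-detection against expectation, binomial for shares and for ratios of levels. The promyelocyte label was checked against 6 granule genes (Mpo, Elane, Prtn3, Ctsg, Prss57 and Ms4a3), which did not give a single profile for both libraries. They summed to 8291 CPM in the vehicle library and 18863 CPM in the treated one. Of the 6, 3 were at least 2-fold higher in the treated library, 1 was lower and 2 were within 2-fold. Ctsg was at 6444 CPM in the vehicle library and 5979 CPM in the treated one, but Mpo was at 311 and 0.4996 CPM and Elane at 62.8 and 7663 CPM. Despite the Cd34- gate, the vehicle library held 5336 counts of Cd34 RNA (53.8 CPM) in 50.6% of cells, beside 13 counts in the treated library. The gate acts on surface protein and these counts are RNA, so the 2 measures are unlike. The libraries shared 11 cell barcodes.

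The constant genes lie in 1 cluster on mouse chromosome 13 (GRCm38). Tcrg-C1 (ENSMUSG00000076749) spans 19214103 to 19217024 on the plus strand, Tcrg-C3 19260884 to 19263528 on the plus strand, Tcrg-C2 (ENSMUSG00000076752) 19304649 to 19307551 on the minus strand and Tcrg-C4 (ENSMUSG00000076757) 19344558 to 19352756 on the plus strand. Tespa1 (ENSMUSG00000034833) lies on chromosome 10 from 130322870 to 130364111 on the plus strand, and its annotated transcript has 9 exons, 8 of them coding. The constant genes are near copies, and the start of the coding sequence is shown because it bears on how far reads can be assigned to each of them. The lines give the first 90 coding bases of each gene, 5′ to 3′ on the coding strand, from the GENCODE M21 transcripts on GRCm38, with capitals at bases that differ from Tcrg-C1.
Tcrg-C1, chr13:19214103-19214192, plus strand: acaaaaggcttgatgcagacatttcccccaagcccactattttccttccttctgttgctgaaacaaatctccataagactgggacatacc
Tcrg-C2, chr13:19307462-19307551, minus strand: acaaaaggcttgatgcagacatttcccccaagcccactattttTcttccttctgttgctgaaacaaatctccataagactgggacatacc
Tcrg-C3, chr13:19260885-19260974, plus strand: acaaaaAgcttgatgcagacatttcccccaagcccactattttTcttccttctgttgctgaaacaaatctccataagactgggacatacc
Tcrg-C4, chr13:19344558-19344647, plus strand: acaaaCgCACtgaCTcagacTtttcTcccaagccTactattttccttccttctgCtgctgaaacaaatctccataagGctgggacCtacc

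In these 90 bases Tcrg-C2 differed from Tcrg-C1 at 1 base, Tcrg-C3 at 2 and Tcrg-C4 at 12. Over the whole of the 330-base exon that opens the coding sequence, Tcrg-C1 and Tcrg-C2 were 97.3% identical, while Tcrg-C4 was 82.1% identical to Tcrg-C1. A window of 91 bases slid along the last 300 bases of each transcript, where a 3′ assay reads most often, was shared with another constant gene in 14 of 210 positions for Tcrg-C1 (6.67%), in 14 of 210 for Tcrg-C2 and in 0 of 210 for Tcrg-C4. For Tcrg-C3 the window was shared in 37 of 210 positions (17.6%). Most 3′ windows were therefore particular to a gene, least so for Tcrg-C3. How reads that match 2 copies were treated is not given in the sources used here. Counts of Tcrg-C1, Tcrg-C2 and Tcrg-C3 are uncertain to the extent that reads fell in the shared stretches.

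All 4 genes were lower in the treated library, and Tcrg-C1 was the member that kept most counts. Tcrg-C2 had 15740 counts (159 CPM, 156 to 161) in the vehicle library and 120 counts (1.09 CPM, 0.904 to 1.30) in the treated library, a log2 ratio of −7.18 (−7.46 to −6.93). Tespa1 had 6843 counts (69.05 CPM, 67.4 to 70.7) and 53 counts (0.481 CPM, 0.361 to 0.630), a log2 ratio of −7.15 (−7.58 to −6.77). Tcrg-C4 had 984 counts (9.93 CPM, 9.32 to 10.6) and 13 counts (0.118 CPM, 0.0629 to 0.202), a log2 ratio of −6.34 (−7.31 to −5.61). These 3 genes lay 145-fold, 142-fold and 81.0-fold lower. Tcrg-C1 had 17501 counts (177 CPM, 174 to 179) in the vehicle library and 1613 counts (14.7 CPM, 13.9 to 15.4) in the treated library, a log2 ratio of −3.59 (−3.67 to −3.52), or 12.05-fold lower. The ratio of Tcrg-C1 to Tcrg-C2 counts was therefore 1.11 in the vehicle library and 13.4 in the treated library, and Tcrg-C1 made up 52.6% (52.1 to 53.2) and 93.1% (91.8 to 94.2) of the counts of the pair.

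As background, 5548 genes reached 20 CPM in 1 or both libraries. Of these, 280 (5.05%) were at least 2-fold lower and 168 (3.03%) at least 2-fold higher with retinoic acid, and the median log2 ratio was 0.01. The 3 members that passed this limit all lay in the lower group, as the choice of the members fixes. Counted from the lowest ratio, Tcrg-C2 ranked 6, Tespa1 ranked 7 and Tcrg-C1 ranked 36, and Tcrg-C4 did not reach 20 CPM. Marker genes of several cell types moved at the same time, and their part in the ratios was not tested. The 7 markers of maturing neutrophils summed to 1163 CPM (vehicle) and 34630 CPM (treated), the 8 of mast cells or basophils to 803 and 68.1 CPM, of which 2 and 3 were at 0, and the 5 of progenitors to 70.1 and 14.2 CPM, of which 2 were at 0 in each library. Cd34 alone carried most of the progenitor sum in the vehicle library and almost none of it in the treated library. Cpa3, the mast cell gene to which the members are compared further on, was at 570 and 0.0999 CPM.

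The remaining genes of the locus were scarce in both libraries. Of 26 names listed for the locus, 15 were in the files and 4 of those (Tcrg-V4, Tcrg-V5, Tcrg-V6 and Trgj3) had 0 counts in both. The other constant gene, Tcrg-C3, had 397 counts (4.01 CPM) in the vehicle library and 1 count in the treated library, a log2 ratio of −8.20 (−14.09 to −6.30). Variable and joining segments were nearly absent even where the constant genes were abundant. In the vehicle Trgv2 had 15 counts, Tcrg-V1 14, Trgj2 9, Trgj1 5, Tcrg-V7 2, Tcrg-V3 1 and Trgj4 1. In the treated library Tcrg-V1 had 1 count and the other 6 segments had 0, which allows up to 3 counts (0.0273 CPM) each. A 3′ assay reads the constant end of a transcript, so these counts do not show whether the segments were rearranged.

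The genes that a T-cell receptor needs at the cell surface were near 0 in both libraries. Cd3e had 0 counts in each, Cd3d had 17 counts in each, Cd3g had 4 in the vehicle library and 0 in the treated library, and Cd247, which encodes the zeta chain, had 11 and 3. The 4 genes together gave 32 counts (0.323 CPM) in the vehicle library and 20 counts (0.182 CPM) in the treated library. The beta chain constant genes Trbc1 and Trbc2, the variable gene Trdv4, and the recombination genes Rag1, Rag2 and Dntt had 0 counts in both. Trdc, the constant gene of the delta chain, had 228 counts (2.30 CPM) in the vehicle library and 6 (0.0545 CPM) in the treated library, a log2 ratio of −5.29 (−6.86 to −4.26). Trac, the constant gene of the alpha chain, had 156 and 20 counts, a log2 ratio of −3.08 (−3.87 to −2.44), and Ptcra, the surrogate alpha chain of thymocytes, had 3 and 2. The vehicle library thus held delta and alpha constant RNA at low levels beside abundant gamma constant RNA, with almost none of the CD3 genes.

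**Figure D1:**
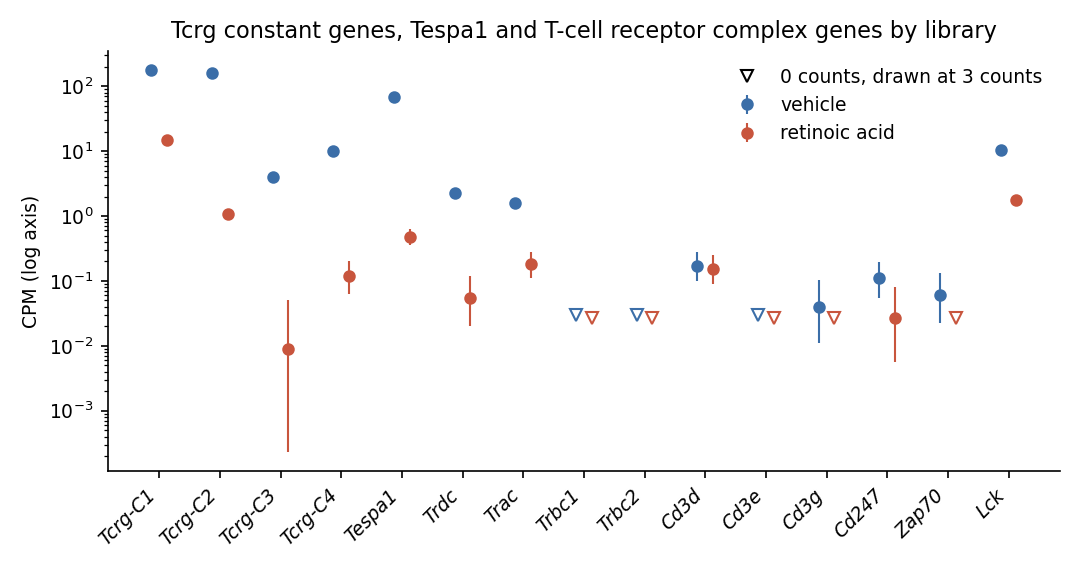
Level in CPM (log axis) of the Tcrg constant genes, Tespa1, other receptor chains, the CD3 genes and 2 receptor kinases (Zap70 and Lck) in the vehicle (blue) and retinoic acid (red) libraries, with 95% Poisson intervals for counting error; open triangles mark 0 counts, drawn at the level of 3 counts. The Tcrg constant genes and Tespa1 sit between 4.01 and 177 CPM in the vehicle, while the CD3 genes lie under 1 CPM in both libraries.

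Markers of T cells and of other lymphoid cells were unevenly present. The 17 T-cell markers summed to 707 CPM in the vehicle library and 350 CPM in the treated library, but 4 and 6 of the 17 were at 0 and 11 in each library were under 1 CPM. Thy1, a surface protein also found on progenitors, carried most of it at 604 and 310 CPM, followed by the transcription factor Tcf7 at 53.8 and 7.42 CPM and the adaptor Lat at 29.8 and 21.5 CPM. Of 6 gamma-delta T-cell markers 3 were at 0 in each library, and the 6 summed to 3.85 and 2.57 CPM. Of 8 natural killer or innate lymphoid markers 4 were at 0 in each library and 7 were under 1 CPM, the exception being the granule protein gene Nkg7 at 1283 and 575 CPM. The 6 B-cell markers summed to 2.56 and 2.32 CPM, while the immunoglobulin heavy chain gene Ighm, which is not among them, went the other way from the members at 4.98 and 42.6 CPM, a log2 ratio of 3.09 (2.96 to 3.23).

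No cell in either library held RNA of more than 1 CD3 gene. All 32 CD3 counts of the vehicle lay in 32 different cells and all 20 of the treated library in 20. Depth decides how many cells show a rare RNA, so cells with at least 5000 UMIs were thinned at random to 5000 UMIs each for shares of cells, a depth reached by 5282 vehicle and 6659 treated cells and missed by 194 and 481. After thinning, 5 of 3111 vehicle cells with a Tcrg-C1, Tcrg-C2 or Tcrg-C4 UMI had a CD3 UMI (0.161%, 0.0522 to 0.375), and so did 6 of 2171 cells without one (0.276%, 0.101 to 0.601). At full depth the shares were 26 of 4441 (0.585%, 0.383 to 0.857) and 6 of 1035 (0.580%, 0.213 to 1.26). CD3 UMIs were thus no more frequent in cells with Tcrg RNA than in cells without it, within counting error.

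For Tespa1 too the shares overlapped within counting error. After thinning, 5 of 1535 vehicle cells with a Tespa1 UMI had a CD3 UMI (0.326%, 0.106 to 0.759), against 6 of 3747 without one (0.160%, 0.0588 to 0.348). At full depth 19 of 3360 vehicle cells with a Tespa1 UMI had a CD3 UMI (0.565%, 0.341 to 0.882), against 13 of 2116 without one (0.614%, 0.328 to 1.05). In the treated library 7 of 1368 cells with a Tcrg UMI (0.512%, 0.206 to 1.05) and 13 of 5772 cells without (0.225%, 0.120 to 0.385) had a CD3 UMI, and those with a Tcrg-C1 UMI were also the deeper cells (median 18166 UMIs against 13772).

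Receptor RNA was spread over many vehicle cells, and the spread differed between the members. After thinning, 42.9% (41.5 to 44.2) of vehicle cells had a Tcrg-C1 UMI, 36.7% (35.4 to 38.1) a Tcrg-C2 UMI, 29.1% (27.8 to 30.3) a Tespa1 UMI and 4.58% (4.03 to 5.18) a Tcrg-C4 UMI. In the treated library these shares were 6.76% (6.17 to 7.39), 0.420%, 0.150% and 3 of 6659 cells. No cell type known to lack these genes was set apart in either library, so RNA free in the droplets was not measured apart from expression. At full depth only 563 of 5476 vehicle cells (10.3%) had none of the 4 genes and 302 (5.51%) had all 4, whereas 5745 of 7140 treated cells had none and 0 had all 4.

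Tcrg-C1 and Tcrg-C2 were concentrated in some cells, and Tespa1 was even. The variance of the thinned counts divided by their mean (the Fano factor, 1 for counts scattered at random) was 4.23 for Tcrg-C1, 2.81 for Tcrg-C2, 1.40 for Tcrg-C4 and 1.13 for Tespa1. Tcrg-C1 reached 37 UMIs in a thinned cell and 122 in a whole cell, and 3.71% of thinned cells had 5 or more. For Tcrg-C2 that share was 3.69%. Tespa1 never passed 9 UMIs even in a whole cell, and 0.0379% of thinned cells had 5 or more. Random scatter of the same mean would give a Tcrg-C2 UMI in 56.5% of cells, against the 36.7% observed, and a Tespa1 UMI in 30.5%, against 29.1%. The 10% of vehicle cells richest in each gene (548 cells) held 49.2% of all Tcrg-C1 counts, 49.6% of Tcrg-C2 and 34.8% of Tespa1.

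**Figure D2:**
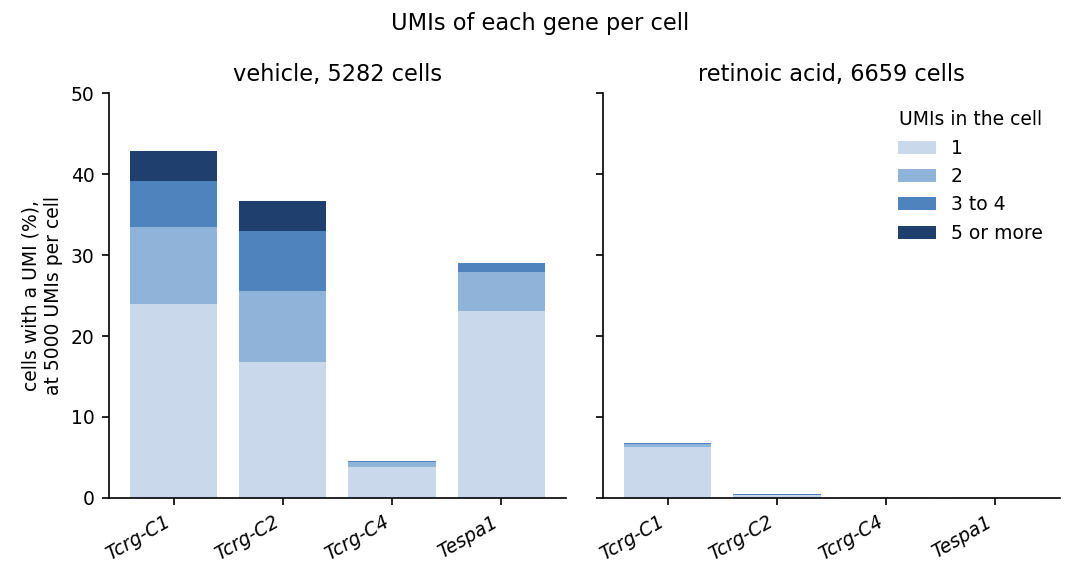
Share of cells (percent) with 1, 2, 3 to 4 or 5 or more UMIs of each gene, after thinning every cell to 5000 UMIs, in 5282 vehicle and 6659 treated cells. Dark segments are visible for Tcrg-C1 (3.71%) and Tcrg-C2 (3.69%) in the vehicle, while Tespa1 cells mostly held 1 UMI (23.1% of all cells).

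Levels also moved with the depth of the vehicle cells, and the part of depth in the results below was not tested. With the cells in 4 equal groups by depth, from the shallowest (median 9141 UMIs) to the deepest (median 27887), Tcrg-C1 had 196, 224, 198 and 135 CPM, Tcrg-C2 146, 201, 171 and 134 CPM, Tcrg-C4 17.4, 15.2, 10.6 and 4.88 CPM, and Tespa1 78.7, 77.5, 68.2 and 62.8 CPM. The deepest cells were thus the lowest for all 4 genes.

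The constant genes tended to occur in the same cells, whereas Tespa1 was found with them about as often as independence gives. Tcrg-C1 and Tcrg-C2 were seen together in 1141 thinned vehicle cells where 832 were expected if they were independent, 1.37 times as many (1.29 to 1.45), with a Pearson correlation of 0.34 over 5282 cells on log(1 + count). Tcrg-C4 was seen with Tcrg-C1 1.52 times as often as independence gives (1.29 to 1.78) and with Tcrg-C2 1.63 times (1.38 to 1.92). Reads that match both Tcrg-C1 and Tcrg-C2 were not told apart here, while Tcrg-C4 shared no 91-base window with either. Tespa1 and Tcrg-C1 were seen together in 695 cells where 658 were expected (1.06 times, 0.979 to 1.14), and with Tcrg-C2 the ratio was also 1.06 (0.980 to 1.15). The correlations of Tespa1 with the 3 constant genes were 0.02 each, too weak in such sparse counts to be read.

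Cells did not all use the constant genes in the same proportion. In 1106 vehicle cells with at least 10 UMIs of Tcrg-C1 and Tcrg-C2 together, the Tcrg-C1 share had a median of 44% and quartiles of 25.7% and 65.2%. Its standard deviation over cells was 25.9 percentage points, where drawing the same UMIs at random from 1 common share gives 12.6. Tcrg-C1 made up over 90% of the pair in 75 of these cells (6.78%) and under 10% in 60 (5.42%), and 971 lay between. Most such cells therefore held RNA of both genes, in unequal amounts.

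Cells rich in Tcrg RNA held more Trdc RNA, and their CD3 counts were too few to show a difference. After thinning, 1262 vehicle cells had 3 or more UMIs of Tcrg-C1, Tcrg-C2 and Tcrg-C4 together (median depth 16294). They were set beside the 2171 cells with none after thinning (median depth 16963). The second set was not free of Tcrg RNA. At full depth, at which the levels below were taken, 1080 of its cells held Tcrg-C1 (55.1 CPM) and 539 held Tcrg-C2 (30.3 CPM). Trdc had 109 counts (4.85 CPM) in the first set and 44 (1.10 CPM) in the second, a log2 ratio of 2.13 (1.63 to 2.68). Tcrg-C3 had 238 and 41 counts, a log2 ratio of 3.36 (2.89 to 3.89), with shared reads not told apart. Trac had 39 and 60 counts (log2 ratio 0.22, −0.41 to 0.82), Cd3d had 5 and 8 counts, Cd247 3 and 3, and Cd3g 1 and 1. Tespa1 was at 73.6 and 65.0 CPM, a log2 ratio of 0.18 (0.09 to 0.27). Of 5341 genes that reached 20 CPM in 1 or both sets, 13 (0.243%) were at least 2-fold higher and 37 (0.693%) at least 2-fold lower in the Tcrg-rich cells. The 3 constant genes are among the higher genes because the sets were made from them.

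Co-detection with Cpa3, which encodes mast cell carboxypeptidase, was above independence for every member, and the correlation was highest for Tcrg-C1. Correlations with Mpo, which encodes the granule enzyme myeloperoxidase of promyelocytes, were too weak to be read. Co-detection with Mpo was below independence for Tcrg-C1 and Tcrg-C4, but not beyond counting error for Tcrg-C2 (0.970 times, 0.878 to 1.07) and Tespa1 (0.942 times, 0.840 to 1.05). Over vehicle cells the correlation with Cpa3 was 0.33 for Tcrg-C1, 0.22 for Tcrg-C2, 0.13 for Tcrg-C4 and 0.13 for Tespa1, and with Mpo it was −0.08, −0.04, −0.05 and −0.02. These are descriptions over 5282 cells of 1 library that share their preparation, and those of Tcrg-C4 and Tespa1, like all those with Mpo, are too weak to be read in such sparse counts. Cpa3 itself had a correlation of −0.20 with Mpo. Mpo was seen with Tcrg-C4 0.616 times as often as independence gives (0.422 to 0.870) and with Tcrg-C1 0.908 times (0.825 to 0.997). Cpa3 was seen with Tcrg-C4 1.37 times (1.18 to 1.58) and with Tcrg-C2 1.23 times (1.16 to 1.30). With Tcrg-C1 it was seen 1.20 times (1.14 to 1.26) and with Tespa1 1.14 times (1.07 to 1.21).

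Among 5172 genes at 20 CPM or more in the vehicle library, the highest correlations of Tcrg-C1 were with Tcrg-C2 (0.34), Cpa3 (0.33), the interferon-induced membrane protein gene Ifitm1 (0.28), the aldo-keto reductase gene Akr1c13 (0.22) and the aspartic protease gene Napsa (0.20). Tcrg-C2 had Tcrg-C1, Ifitm1 (0.31), Napsa (0.26), the protease inhibitor gene Serpina3g (0.22) and the calcium-binding protein gene S100a4 (0.22), with Cpa3 next at rank 6. Lowest for Tcrg-C1 were the chromatin genes Hmgb2 (−0.22) and H2afz (−0.21) and the neutrophil gene S100a9 (−0.18), and for Tcrg-C2 Hmgb2 (−0.17), S100a9 (−0.17) and the granule gene Ngp (−0.16). No gene passed 0.16 for Tcrg-C4, led by the ribosomal gene Rps24 (0.15), Tcrg-C1 (0.15), S100a4 (0.14), Ifitm1 (0.13) and Cpa3 (0.13), or for Tespa1, led by the mitochondrial gene mt-Co1 (0.13), Cpa3 (0.13), mt-Cytb (0.12), mt-Co3 (0.11) and mt-Co2 (0.11). The lowest for Tcrg-C4 were Hmgb2 (−0.15), Ctsg (−0.14) and Ptma (−0.13), and those for Tespa1 were Ngp (−0.10), S100a9 (−0.09) and S100a8 (−0.09).

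The vehicle cells were then divided by Cpa3 and Mpo. Thinned cells with at least 2 Cpa3 and at most 1 Mpo UMI (2142 Cpa3 cells) were set beside cells with the reverse (612 Mpo cells). These are ranges of a count and not cell types, and 717 cells with 1 and 409 with 2 Cpa3 UMIs, and 319 and 162 for Mpo, lay next to the limits. Tcrg-C1 was at 292 CPM (287 to 298) in Cpa3 cells and 98.3 CPM in Mpo cells, a log2 ratio of 1.57 (1.49 to 1.65). Tcrg-C2 was at 228 and 118 CPM, a log2 ratio of 0.94 (0.87 to 1.02). Tcrg-C4 was at 17.9 and 3.97 CPM, a log2 ratio of 2.16 (1.77 to 2.61). Tespa1 differed least, at 84.0 and 56.2 CPM, a log2 ratio of 0.58 (0.46 to 0.70). Of the 3 members that reached 20 CPM in a class, only Tcrg-C1 was at least 2-fold higher in Cpa3 cells, beside 62 of 5444 genes (1.14%) higher and 50 (0.918%) lower.

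UMIs of the members were found in fewer Mpo cells than Cpa3 cells. After thinning, 33.5% of Mpo cells had a Tcrg-C1 UMI, 29.1% a Tcrg-C2 UMI, 24.0% a Tespa1 UMI and 2.29% (14 of 612) a Tcrg-C4 UMI, against 56.6%, 46.8%, 34.8% and 7.38% of Cpa3 cells. The 2326 cells with neither marker were close to the Mpo cells, with 103 CPM of Tcrg-C1, 110 CPM of Tcrg-C2, 5.09 CPM of Tcrg-C4 and 59.1 CPM of Tespa1. The 202 cells with both markers had 183 CPM of Tcrg-C1, 199 CPM of Tcrg-C2, 9.37 CPM of Tcrg-C4 and 77.7 CPM of Tespa1. Tcrg-C1 made up 56.2% (55.4 to 56.9) of the Tcrg-C1 and Tcrg-C2 counts in Cpa3 cells and 45.4% (43.5 to 47.2) in Mpo cells, so the 2 genes were not in the same ratio in both classes.

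**Figure D3:**
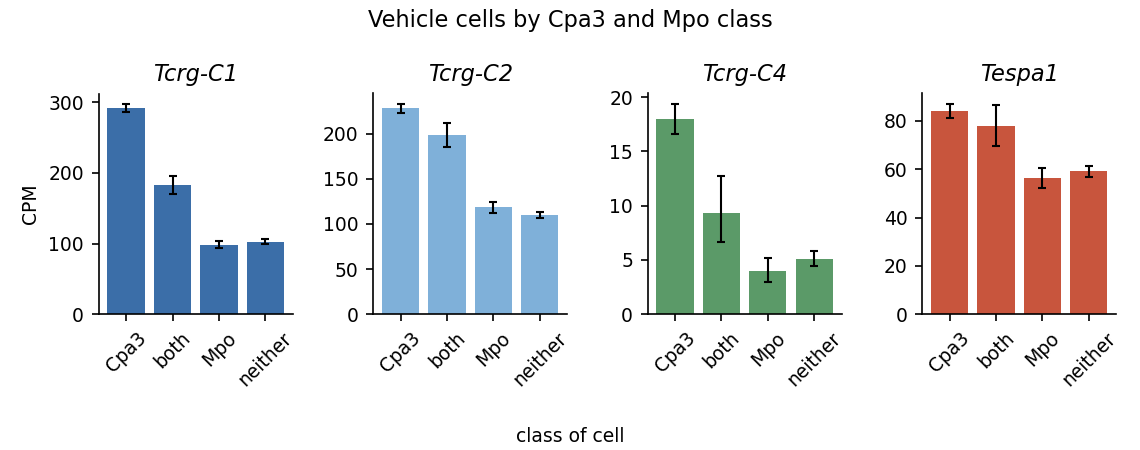
Level in CPM of each gene in vehicle cells of 4 classes (Cpa3, both, Mpo and neither, from thinned counts), as bars from 0 with 95% Poisson intervals for counting error; each panel has its own axis. Cpa3 cells are highest for Tcrg-C1 (292 CPM against 98.3 in Mpo cells), and Tespa1 differs least (84.0 against 56.2 CPM).

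The relation to Cpa3 was graded. From cells with 0 Cpa3 UMIs through 1, 2, 3 to 5, 6 to 10 and 11 or more, Tcrg-C1 had 91.9, 132, 166, 228, 317 and 480 CPM. Over the same steps Tcrg-C2 went from 97.7 to 274 CPM, Tcrg-C4 from 3.78 to 29.1 CPM and Tespa1 from 56.6 to 92.2 CPM. By Mpo, Tcrg-C1 and Tcrg-C2 had no steady course over the groups of few UMIs and were lower in the groups of many. Over the same steps of Mpo, Tcrg-C1 had 189, 194, 136, 143, 109 and 87.3 CPM, and Tcrg-C2 had 165, 156, 159, 167, 119 and 104.5 CPM. From 0 to 11 or more Mpo UMIs, Tcrg-C4 fell at each step, from 11.1 to 3.74 CPM. Tespa1 had no steady course, at 71.1, 62.8, 56.3, 65.9, 61.0 and 60.7 CPM. Between the end groups Tespa1 differed least of the 4 in both series.

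**Figure D4:**
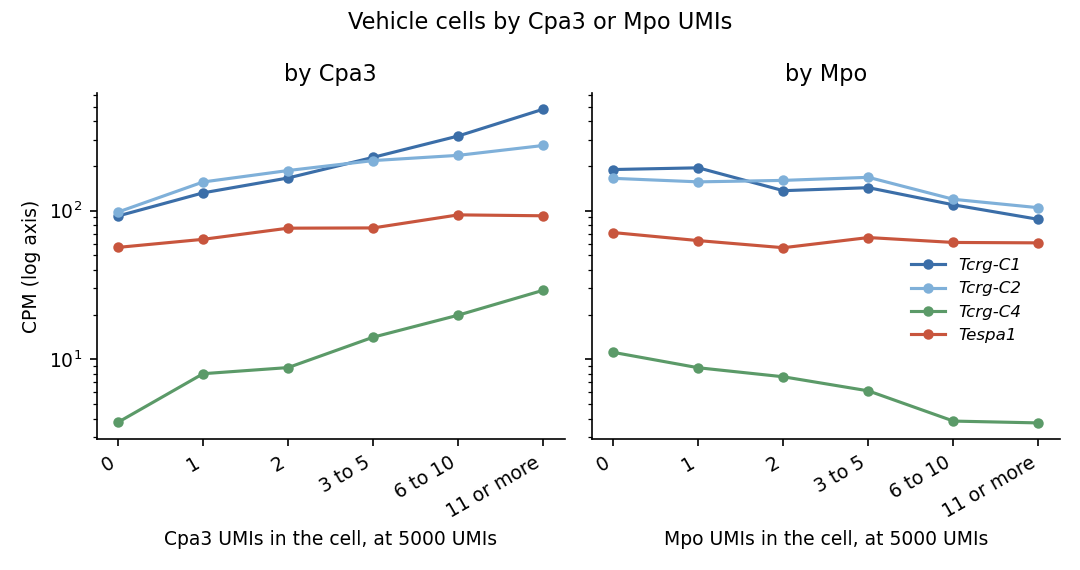
Level in CPM (log axis) of the 4 genes in vehicle cells grouped by the Cpa3 UMIs (left) or Mpo UMIs (right) they kept at 5000 UMIs per cell. Tcrg-C1 runs from 91.9 to 480 CPM over the Cpa3 groups and from 189 to 87.3 CPM over the Mpo groups.

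Cell cycle phase moved with these classes. By phase scores from S and G2/M gene lists, 70.1% of Cpa3 cells but 27.0% of Mpo cells were called G1, and median depth was 15548 and 20580 UMIs. In the vehicle Tcrg-C1 was at 274 CPM in G1 cells and at 109 CPM in both S and G2/M cells, Tcrg-C2 at 222, 143 and 108 CPM, Tcrg-C4 at 19.5, 4.40 and 3.01 CPM, and Tespa1 at 77.8, 59.0 and 63.7 CPM. Each gene was still higher in Cpa3 than in Mpo cells within each phase, and the differences between phases were not tested. For Tcrg-C1 the log2 ratio of Cpa3 to Mpo cells was 1.65 (1.49 to 1.82) in G1 cells, 0.74 (0.52 to 0.96) in S cells and 0.80 (0.68 to 0.93) in G2/M cells. For Tcrg-C2 it was 0.73 (0.59 to 0.87) in G1, 0.53 (0.34 to 0.72) in S and 0.70 (0.58 to 0.82) in G2/M cells, with intervals that overlap. For Tcrg-C4 it was 1.81 (1.19 to 2.59) in G1 cells, 0.82 in S cells, where the interval (−0.31 to 2.11) includes 0, and 0.81 (0.13 to 1.57) in G2/M cells. For Tespa1 it was 0.39 (0.17 to 0.63) in G1, 0.67 (0.35 to 0.99) in S and 0.55 (0.39 to 0.72) in G2/M cells. In the treated library Tcrg-C1 was not highest in G1: it was at 10.2, 17.1 and 15.0 CPM in G1, S and G2/M cells.

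The members were lower in vehicle cells with more RNA of neutrophil maturation genes. Each cell was given a maturation share, the percentage of its UMIs that came from 18 such genes (Camp, Ngp, Ltf, S100a8 and others). With vehicle cells in 4 equal groups from the lowest to the highest share, Tcrg-C1 had 203, 183, 180 and 136 CPM, Tcrg-C2 210, 175, 149 and 96.5 CPM, Tcrg-C4 14.2, 9.74, 7.93 and 7.57 CPM, and Tespa1 79.1, 70.2, 69.4 and 55.2 CPM. In the treated library the 4 groups gave 22.6, 14.3, 11.5 and 7.03 CPM for Tcrg-C1 and 2.63, 0.598, 0.434 and 0.356 CPM for Tcrg-C2, and for Tespa1 1.06, 0.332, 0.217 and 0 CPM. For these 3 genes the order of the groups was the same in both libraries, at levels far apart.

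**Figure D5:**
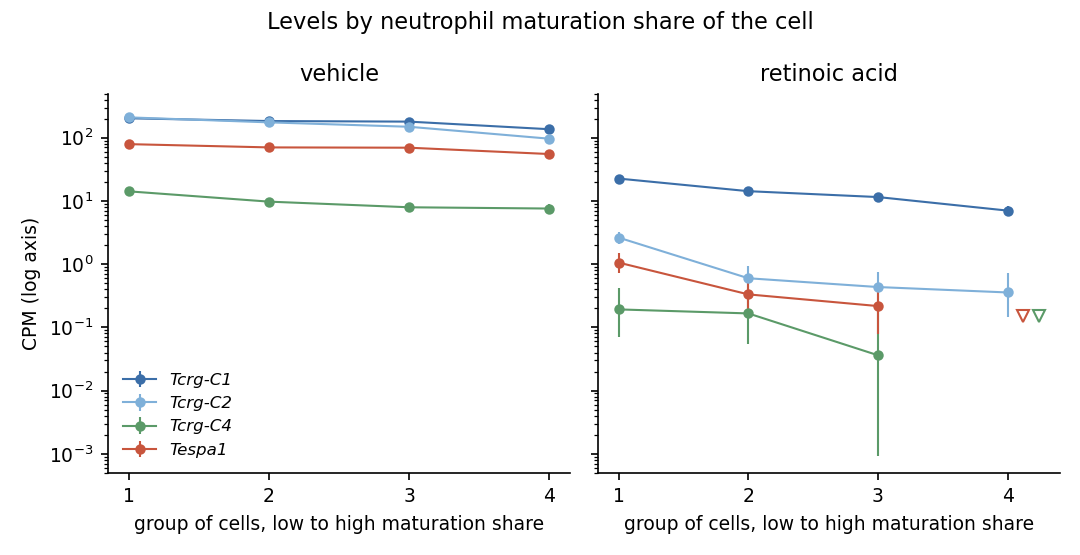
Level in CPM (log axis) of the 4 genes in 4 equal groups of cells, from low to high maturation share, in the vehicle library and retinoic acid libraries, with 95% Poisson intervals for counting error; open triangles mark 0 counts, drawn at the level of 3 counts and set to the right of their group. Tcrg-C1 runs from 203 to 136 CPM over the vehicle groups and from 22.6 to 7.03 CPM over the treated groups.

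The libraries hardly overlapped in maturation share, so cells could not be matched closely. The 492 treated cells at or below the 95th percentile of the vehicle share (0.58%) had a median share of 0.38%, above the 0.32% of the highest of the 4 vehicle groups and the 0.12% of all vehicle cells. They had 31.8 CPM of Tcrg-C1 (28.2 to 35.7), 6.58 CPM of Tcrg-C2, 0.446 CPM of Tcrg-C4 and 3.12 CPM of Tespa1. Against the 5282 vehicle cells with at least 5000 UMIs the log2 ratios were −2.47 for Tcrg-C1, −4.58 for Tcrg-C2, −4.31 for Tcrg-C4 and −4.44 for Tespa1. Each was smaller in size than over all cells. The 6167 treated cells above that percentile had 13.1 CPM of Tcrg-C1, 0.602 CPM of Tcrg-C2 and 0.211 CPM of Tespa1. In the other direction, 58 vehicle cells lay above the treated median of 3.72%. They were shallow (median 9701 UMIs) and had 30.8 CPM of Tcrg-C1 (19.1 to 47.1), 44.0 CPM of Tcrg-C2 (29.7 to 62.9), 8.81 CPM of Tcrg-C4 (3.23 to 19.2) and 10.3 CPM of Tespa1 (4.13 to 21.2). These vehicle cells had a median share of 8.8%, and the 2 treated groups of highest share, at 5.84% and 20.5%, had 11.5 and 7.03 CPM of Tcrg-C1, 0.434 and 0.356 CPM of Tcrg-C2, 0.0362 and 0 CPM of Tcrg-C4 and 0.217 and 0 CPM of Tespa1.

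What remained in the treated library was mostly single UMIs of Tcrg-C1. It was found in 1310 of 7140 cells (18.3%), with 1 UMI in 1070 of them (81.7%) and at most 5. Of these cells 5 had a Cpa3 UMI, 2 had an Mpo UMI and 2 carried a barcode that also occurs in the vehicle library. Tcrg-C2 was found in 91 cells, with at most 7 UMIs and 0 cells with Cpa3 or Mpo, and Tespa1 in 49 cells, 45 of them with 1 UMI and 2 with Cpa3. A second member was present in 41 of the 91 Tcrg-C2 cells and 22 of the 49 Tespa1 cells. A single cell held 53 of the library's 55 Mpo counts, and it had 4 Tcrg-C1 UMIs, 0 of the other members, 0 Cpa3 and a maturation share of 0.10%.

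Genes that work next to the receptor were at least 2-fold lower in a larger share than all measured genes, though most were within 2-fold. Those around Tespa1 were mostly within 2-fold, as was the larger part of all measured genes. Lists were summarised over genes with at least 10 counts over both libraries, among which 14561 genes had a median log2 ratio of −0.08, 15.0% were at least 2-fold lower and 5.72% at least 2-fold higher. Of 24 genes of proximal T-cell receptor signalling 19 were measured, of which 8 were at least 2-fold lower, 0 higher and 11 within 2-fold, with a median of −0.41. The kinase gene Lck was at 10.5 and 1.75 CPM (log2 ratio −2.57), and its partner kinase Zap70 had 6 and 0 counts. The Tec family kinase gene Txk, named after its values were seen, had 193 and 9 counts, a log2 ratio of −4.50 (−5.72 to −3.62), larger in size than that of Tcrg-C1. Of the 10 with at least 20 CPM, the adaptor Lat2 (118 and 41.7 CPM, 2.84-fold lower) and the phosphatase Ptpn6 (284 and 139 CPM, 2.05-fold lower) were at least 2-fold lower. On the log2 scale Lat (−0.47), Lcp2 (−0.35) and Grb2 (−0.41), which are adaptors, the exchange factor Vav1 (0.09), the phospholipase Plcg2 (−0.02), the kinases Syk (0.66) and Csk (−0.06) and the phosphatase Ptpn22 (0.46) were within 2-fold.

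Of 19 calcium signalling genes around Tespa1 in the files (inositol trisphosphate receptors, store-operated channels, calcineurin, NFAT factors and mitochondrial partners), 18 were measured, 2 were at least 2-fold lower and 16 within 2-fold, with a median of 0.02. Of all 5548 genes at 20 CPM or more in 1 or both libraries, 5.05% were at least 2-fold lower and 3.03% at least 2-fold higher. The 11 calcium signalling genes with at least 20 CPM were all within 2-fold. Among them were the calcium sensors Stim1 (30.4 and 46.7 CPM, log2 ratio 0.62) and Stim2 (0.41), the channel genes Orai1 (142 and 114 CPM, −0.32) and Orai2 (0.13), the calcineurin genes Ppp3ca (0.29), Ppp3cb (0.27) and Ppp3r1 (0.31), Nfatc3 (0.12), Vdac1 (−0.08), Hspa9 (−0.44) and Fam162a (−0.43).

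Of 17 genes known to act on the Tcrg locus or on gamma-delta T-cell development, 16 were measured, of which 3 were at least 2-fold lower, 1 higher and 12 within 2-fold, with a median of −0.30. The nuclear factor Tox was lower (25.9 and 7.28 CPM, log2 ratio −1.83) and the inhibitor of E proteins Id2 higher (33.6 and 74.7 CPM, 1.15). The receptor chain Il2rg (−0.87), the kinase Jak1 (0.51), Stat5a (−0.30), the transcription factors Runx1 (−0.54), Runx3 (−0.15) and Myb (−0.42) and the E proteins Tcf3 (−0.10) and Tcf12 (−0.29) were within 2-fold. Il7r, the receptor that acts through STAT5 on this locus, had 79 counts in the vehicle library and 21 in the treated library. The lowest ratio of these genes was that of Zbtb16, with 967 and 179 counts, a log2 ratio of −2.58 (−2.82 to −2.35). Of 15 further T-lineage genes 8 were measured, of which 3 were at least 2-fold lower, 1 higher and 4 within 2-fold, with a median of −0.52, among them Tcf7 at −2.86 and Thy1 at −0.96.

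The nearest protein-coding genes were mostly silent, and of those at 20 CPM or more Stard3nl was lower in the treated library and Vps41 nearly level. Beside the Tcrg cluster, Amph before it and Sfrp4 after it had 0 counts in both libraries, and Epdr1 had 6 and 0. Vps41 was at 27.1 and 25.6 CPM, a log2 ratio of −0.09 (−0.16 to −0.01). Stard3nl, which lies 4920 bases beyond Tcrg-C4, was at 25.2 and 12.4 CPM, a log2 ratio of −1.03 (−1.12 to −0.93). Beside Tespa1, Neurod4, Olfr827, Olfr826 and Vmn2r85 had 0 counts in both libraries and Vmn2r86 had 1 and 3. Vmn2r84, a pheromone receptor gene 13814 bases beyond the end of Tespa1, had 61 counts in the vehicle library and 0 in the treated library. Its counts are uncertain, since the source does not say how reads running past the end of Tespa1 were treated.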

How the data were processed

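Single-cell RNA counts of 1 vehicle and 1 retinoic acid library were used. The authors deposited raw UMI counts per gene and cell, which per the file headers came from Cell Ranger 4.0.0. The builds mm10 and GRCm38.p4 are named per the submitters' processing notes, and the treatment of reads that match several genes is not given in the sources used here. The deposited barcodes numbered 5786 and 7416. Cells with at least 1000 UMIs, 500 genes and at most 10% mitochondrial UMIs were kept, which removed 310 and 276 barcodes and left 99107718 and 110088247 UMIs. Scrublet (scanpy 1.11.5) called 1 (0.0183%) and 7 (0.0980%) cells doublets, which was taken as the caller not having worked, and none were removed.

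Counts were summed over cells, divided by the library total, and compared as log2 ratios with 0.5 counts added (Python 3.11.15, scipy 1.17.1). Intervals are exact at 95% and cover counting error only, and a sum of 0 allows 3 counts (0.0303 and 0.0273 CPM). Shares of cells, correlations, classes, phases and maturation shares use cells thinned to 5000 UMIs, and levels in such groups use all UMIs of the cells. Of 32285 identifiers 32158 matched GENCODE M21, which gave coordinates and coding sequences. The calculation was tested on simulated data.

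With 1 library per group the design allows no test. The members, lists and tests were chosen with earlier results of these data known. Named genes were the 4 members, detected Tcrg locus and CD3 genes, members of the other lists that reached 20 CPM in a library, the 3 nearest protein-coding genes on each side, and the 5 highest and 3 lowest correlations of each member. Lck, Zap70, Txk, Il7r, Zbtb16, Trac, Trdc, Ptcra and genes at 0 counts were named outside that rule, after their values were seen. Some genes that the rule names are not reported here. Alternatives covered the cell filters, doublet scores, thinning, scaling (TMM, edgeR 4.0.16), CPM limits, class limits and rank correlation. Phase and maturation alternatives were chosen after seeing the data.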

Additional observations from a re-analysis of the deposited data

How the results depend on the processing

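Of 168 values recomputed, 125 stayed within counting error (correlations within 0.05, counts of genes within 1.5 times), 43 moved and 0 changed sign. Keeping every deposited barcode, a 5% mitochondrial limit and rank correlation moved none of their values. Limits of 5 CPM, 100 CPM and no limit gave 618, 77 and 4018 genes at least 2-fold lower, against 280. For the retinoic acid to vehicle log2 ratio, TMM scaling, which adds 0.08 to every ratio, gave −3.51 for Tcrg-C1. Equal weight for every cell gave −3.74 for Tcrg-C1 and −7.46 for Tcrg-C2. Retinoic acid cells of low maturation share gave −2.47, −4.58, −4.31 and −4.44 for Tcrg-C1, Tcrg-C2, Tcrg-C4 and Tespa1. Shares of vehicle cells with a UMI followed depth: in that order 31.3%, 27.9%, 3.27% and 18.6% at 3000 UMIs, 62.2%, 49.5%, 7.71% and 47.2% at 10000, and 72.4%, 54.4%, 11.1% and 61.4% without thinning. The share of Tcrg cells with a CD3 UMI was 0% at 3000 UMIs and 0.585% without thinning. Co-detection of Tcrg-C1 and Tcrg-C2 was 1.54 times expectation at 3000 UMIs and 1.19 times at 10000, and of Tcrg-C1 and Tcrg-C4 1.24 times at 10000. Correlations with Cpa3 at 10000 UMIs were 0.38, 0.28, 0.18 and 0.18. For the Cpa3 to Mpo log2 ratio, removing the 5% of cells with the highest doublet scores gave 1.66 for Tcrg-C1. A class limit of 1 UMI gave 1.39 for Tcrg-C1, and a limit of 5 gave 1.90 for Tcrg-C1 and 1.11 for Tcrg-C2. Within phases it was 0.73 (Tcrg-C2) and 0.39 (Tespa1) in G1, 0.74 (Tcrg-C1), 0.53 (Tcrg-C2) and 0.82 (Tcrg-C4) in S, and 0.80 (Tcrg-C1), 0.70 (Tcrg-C2) and 0.81 (Tcrg-C4) in G2/M. The cause of these shifts was not tested beyond what each setting does by its construction. No paired analysis was possible because there was 1 library per group. Depth limits what can be said of genes near 0: a count of 0 allows 0.0303 CPM (vehicle) or 0.0273 CPM (retinoic acid).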
